A study of Mus musculus with 6 samples.

Results

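The gene set described here consists of 9 transcription factors that act in the myeloid lineage, chosen by name and read from the count table by their Entrez gene IDs: Spi1 (which encodes PU.1), Cebpa, Cebpb, Cebpd, Cebpg, Gfi1, Maf, Klf4 and Egr1. All 9 were found among the 27179 genes of the table, and 6 of them were among the 12916 genes abundant enough to test. The cells were A/E9a;NRASG12D leukemia cells grown in C57BL/6 mice, which carry the leukemia fusion A/E9a (the AML1-ETO9a splice form of RUNX1-RUNX1T1) together with the activated NRASG12D oncogene. Mice received vehicle or panobinostat, an inhibitor of histone deacetylases, for 3 days. GFP+ cells that excluded propidium iodide were then sorted from the spleen. Both groups carry the same 2 oncogenes, so vehicle is a leukemic and not a normal control. There were 3 libraries per group. They are named here by the leading number of their count column, as vehicle libraries 2, 3 and 4 and panobinostat libraries 1, 5 and 6. The labels do not say whether each library is from its own mouse, so the p-values describe variation among these 6 libraries, some of which may be technical.

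PU.1 is an ETS-family factor that marks the myeloid and lymphoid branches of blood formation and is known for mutual antagonism with the erythroid factor GATA1. The C/EBP proteins are basic leucine zipper factors that pair with each other: C/EBP alpha drives the step to granulocyte and monocyte progenitors, C/EBP beta serves emergency granulopoiesis and macrophages, C/EBP delta is induced by inflammation, and C/EBP gamma is a widely expressed partner. GFI1 is a zinc finger protein that represses transcription and is needed for neutrophil development. MAF acts in macrophages and some T cells, KLF4 in monocytes, and EGR1 is both an immediate early gene and a factor of monocyte differentiation. The A/E9a fusion is known to interfere with C/EBP alpha and PU.1, and histone deacetylases are among the corepressors that the fusion and GFI1 recruit.

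Totals ran from 27259492 to 29548544 counts per vehicle library and from 25794869 to 32571961 per panobinostat library, so 1 count was worth 0.0307 to 0.0388 CPM (counts scaled to a common library total). Kit, the receptor of immature blood cells, lay between 210 and 221 CPM with vehicle and between 163 and 321 CPM with panobinostat. The pan-leukocyte gene Ptprc was low in every library, between 1.77 and 4.43 CPM, and the granulocyte genes Mpo and Itgam had group means under 1 CPM. Other granulocyte genes were not low. The list of 23 such genes summed to 172 to 238 CPM with vehicle and 272 to 425 CPM with panobinostat. Itgb2 of that list had group means of 109 and 234 CPM. The erythroid marker genes summed to 4741 to 5853 CPM with vehicle and to 21831 to 49909 CPM with panobinostat, and the mast cell markers to 1842 to 2327 and 1331 to 3804 CPM. The myeloid label therefore stands beside cells whose erythroid and mast cell sums were above their granulocyte sum. In bulk RNA, fewer cells that express a gene and less RNA per cell cannot be told apart.

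Promoter sequences are printed for Cebpa and Gfi1, whose levels varied most between treated libraries, and for the C/EBP genes Cebpb and Cebpg, whose levels varied less. Whether these letters bear on the levels was not tested. The stretches are the bases before the RefSeq transcription start on GRCm38.p6, written 5′ to 3′ on the gene's strand, without any bases that GENCODE assigns to a UTR. Capitals mark the motif letters found on either strand: the TATA box TATAAA, the C/EBP palindrome TTGCNNAA, the GC box GGGCGG and the CCAAT box, which reads ATTGG on the reverse strand. They come from chr7:35119043-35119292 on the plus strand for Cebpa, chr5:107725806-107725954 on the minus strand for Gfi1, chr2:167688665-167688914 on the plus strand for Cebpb and chr7:35056574-35056816 on the minus strand for Cebpg. In GENCODE, Gfi1 starts further upstream, at 107726036. By that annotation the printed Gfi1 stretch lies inside the gene, outside its UTR, and is not a promoter like the other 3.
Cebpa: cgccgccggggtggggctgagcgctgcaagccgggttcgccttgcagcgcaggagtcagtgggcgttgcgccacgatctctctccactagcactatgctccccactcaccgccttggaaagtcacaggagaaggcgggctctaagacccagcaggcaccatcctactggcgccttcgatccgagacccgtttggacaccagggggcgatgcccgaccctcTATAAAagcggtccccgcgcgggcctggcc
Gfi1: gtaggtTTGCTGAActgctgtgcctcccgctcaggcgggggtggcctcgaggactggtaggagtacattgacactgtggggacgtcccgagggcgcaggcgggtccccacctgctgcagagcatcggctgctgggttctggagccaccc
Cebpb: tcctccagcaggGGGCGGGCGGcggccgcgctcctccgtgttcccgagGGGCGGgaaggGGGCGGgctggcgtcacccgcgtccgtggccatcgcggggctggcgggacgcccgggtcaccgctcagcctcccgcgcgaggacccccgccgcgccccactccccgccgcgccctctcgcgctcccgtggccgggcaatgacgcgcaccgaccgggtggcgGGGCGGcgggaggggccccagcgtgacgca
Cebpg: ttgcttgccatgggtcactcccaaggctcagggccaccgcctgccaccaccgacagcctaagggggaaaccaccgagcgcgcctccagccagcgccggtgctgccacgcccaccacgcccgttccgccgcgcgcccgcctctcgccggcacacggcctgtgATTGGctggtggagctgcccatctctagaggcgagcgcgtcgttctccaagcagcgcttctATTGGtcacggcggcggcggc

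Each of the 4 printed stretches held a different motif of this search. Cebpa held a TATA box, which 11.4% of the 22271 promoter windows of the same length hold. The Gfi1 stretch held 1 C/EBP palindrome, a motif present in 9.05% of windows. Those windows have 250 bases and the printed Gfi1 stretch 149, so the share is not for stretches of its length or kind. The window of a second RefSeq Gfi1 start held no searched motif. The Cebpb window was the richest in G and C, at 81.6% with 41 CpG pairs against medians of 55.6% and 9 over all windows. It held 5 GC boxes, some of them overlapping, while 42.4% of windows hold at least 1. Cebpg had 2 CCAAT boxes, a motif found in 35.4% of windows. A match is a description of letters, and binding was not measured.

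Per kilobase of merged exons, Spi1 was the most abundant of the 9 genes with vehicle, at a level of 24.1 ± 2.27 CPM per kb (SD, n = 3). Cebpg followed at 15.2 ± 2.58 and Egr1 at 8.96 ± 10.6 CPM per kb. The vehicle range of Egr1 per library was wide enough to overlap with its neighbours' spread, whereas Spi1 and Cebpg were separated. The other 6 genes were far lower: Cebpb at 0.486 ± 0.155, Gfi1 at 0.235 ± 0.165, Cebpa at 0.0986 ± 0.0182 and Maf at 0.0570 ± 0.0225 CPM per kb, with Klf4 and Cebpd lower still. Gfi1 and Cebpb overlapped within their SD. The lengths are those of GENCODE, while the annotation of the counting is not given. For Maf the length of 8241 bases exceeds its RefSeq span, 115703253 to 115706894, so its place relative to Cebpa depends on the annotation. The lengths of Egr1 and Cebpd also exceed their RefSeq spans. With panobinostat the order began Spi1 at 32.3 ± 3.07, Egr1 at 20.2 ± 2.62 and Cebpg at 15.4 ± 0.936 CPM per kb. Gfi1 at 1.80 ± 1.80, Cebpa at 1.21 ± 1.35 and Cebpb at 0.747 ± 0.352 CPM per kb came next and could not be ordered within their spread.

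**Figure D1:**
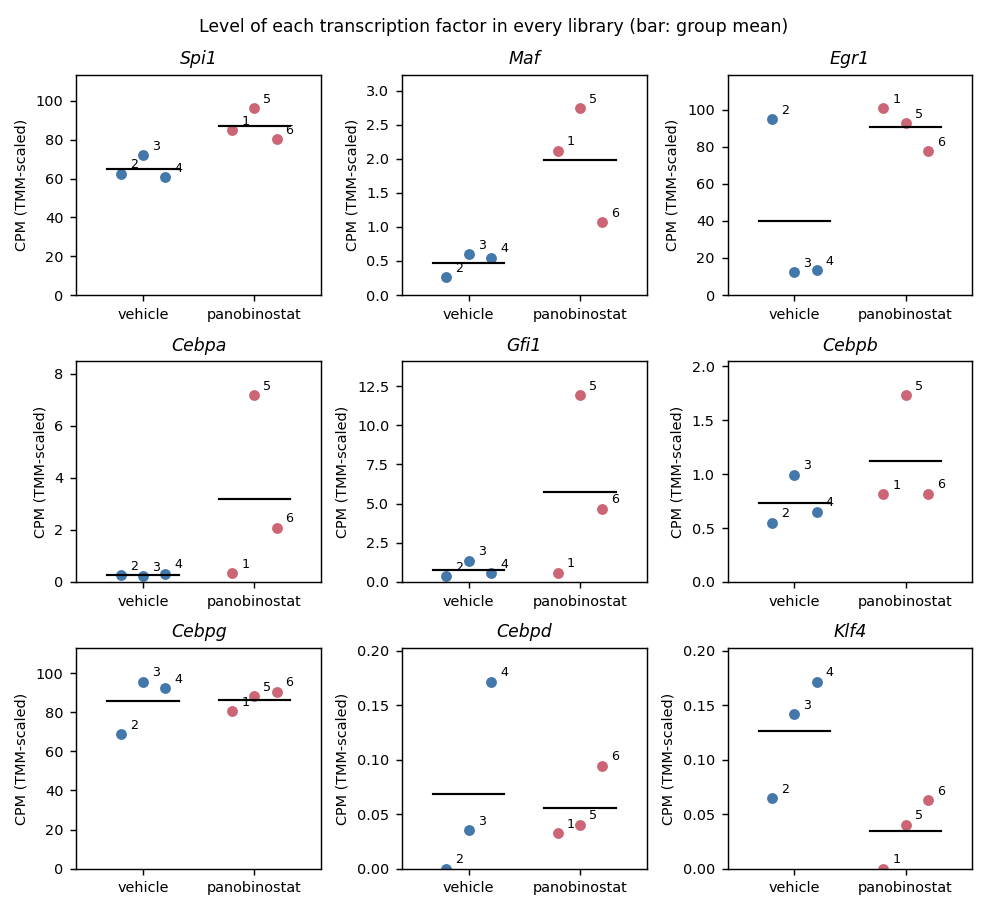
Level of each of the 9 factors in CPM (y axes, each from 0 with its own range) in the 3 vehicle and 3 panobinostat libraries, with 1 point per library and a bar at the group mean. The 3 panobinostat points of Spi1 and Maf lie above all 3 vehicle points, Cebpa and Gfi1 are high in panobinostat libraries 5 and 6 but not in 1, and Egr1 is high in vehicle library 2.

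With panobinostat, Spi1 and Maf were called higher and none of the 6 tested factors was called lower. Over all tested genes 21.0% were called in either direction, 11.3% higher and 9.72% lower, by edgeR's quasi-likelihood test with Benjamini-Hochberg adjustment over all tested genes at an adjusted p under 0.05. All 6 tested factors had a positive log2 fold change, with a median of 0.89, beside a median of 0.01 over all tested genes, except that Cebpg, at 0.02, had a value below 0 in 7 alternatives, down to −0.12 without vehicle library 2. In 2 of the 6, Spi1 and Maf, every panobinostat value lay above every vehicle value, which held for 21.9% of all tested genes. Maf passed the filter on low counts only with the help of the treated libraries, where it is high, so its part in these counts is not added support. With only 6 genes tested, these counts are a description of the members and were not tested against the background.

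Spi1 (Entrez 20375, GRCm38 chromosome 2, 91082374 to 91115759) encodes PU.1. Vehicle libraries 2, 3 and 4 had a level of 62.5, 72.0 and 60.6 CPM, and panobinostat libraries 1, 5 and 6 had 84.8, 96.3 and 80.2 CPM. The groups did not overlap, and each was tight. The mean went from 65.0 ± 6.11 to 87.1 ± 8.28 CPM (SD, n = 3 libraries), a log2 fold change of 0.42 ± 0.11 (SE) or 1.34-fold, with an adjusted p of 0.035 by edgeR's quasi-likelihood test. The call is close to the threshold: without vehicle library 2, 3 or 4 or panobinostat library 5 the adjusted p was 0.12, 0.054, 0.15 and 0.088, and with library size alone as the scaling it was 0.072 at a log2 fold change of 0.32. Scaling moves all genes: library size alone put the median log2 fold change of all tested genes at −0.10 in place of 0.01.

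The gene of the erythroid antagonist of PU.1 was also called higher, near the threshold. Gata1, the master factor of red cell genes, went from 254 ± 7.84 to 360 ± 70.8 CPM (SD, n = 3), a log2 fold change of 0.50 ± 0.14 (SE, adjusted p = 0.045, edgeR). That call was lost with library size alone (adjusted p = 0.070) and without vehicle library 2, 3 or 4 or panobinostat library 6 (adjusted p = 0.12, 0.13, 0.15 and 0.058). The log2 ratio of Spi1 to Gata1 within a library was −1.97 ± 0.17 with vehicle and −2.03 ± 0.34 with panobinostat. This difference of −0.06 was smaller than the spread between libraries (exact permutation test, two-sided, p = 1), and a ratio does not depend on the scaling. The difference turned to 0.11 without panobinostat library 1 and to 0.04 without vehicle library 3. Of the ETS family and PU.1 partner genes, 1 of 14 tested rose, Elk3, an ETS repressor, from 5.94 ± 1.39 to 13.8 ± 5.84 CPM (log2 fold change 1.21 ± 0.34, adjusted p = 0.043). That call held without panobinostat library 1 and was lost without any of the other 5, and with library size alone no gene of the list rose. The median log2 fold change of that list was −0.05, close to that of all genes, of which 11.3% were called higher. Fli1 at 92.6 ± 16.7 and 99.9 ± 37.9 CPM and Ets1 at 104 ± 12.2 and 92.8 ± 44.6 CPM, 2 ETS factors of early blood cells, gave no call. Irf8, the monocyte partner of PU.1, was low, at 0.558 ± 0.0954 and 1.00 ± 0.543 CPM.

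Maf (Entrez 17132, chromosome 8, 115703253 to 115706894) encodes c-MAF, and vehicle libraries 2, 3 and 4 held 8, 17 and 16 counts of it, against 65, 68 and 34 for panobinostat libraries 1, 5 and 6. In CPM this was 0.259, 0.603 and 0.548 with vehicle and 2.12, 2.74 and 1.07 with panobinostat. Every treated library was above every vehicle library, although none reached 3 CPM. The mean went from 0.470 ± 0.185 to 1.98 ± 0.844 CPM (SD, n = 3), a log2 fold change of 2.06 ± 0.47 (SE), with an adjusted p of 0.024 by edgeR's quasi-likelihood test. Vehicle library 2 lay below the filter on low counts, so Maf entered the test only with the help of the treated libraries, where it is high. Its call is therefore not added support. With no filter its adjusted p was 0.018 (edgeR), where 7.3% of genes were called higher. The fold ran from 1.76 to 2.37 on the log2 scale when 1 library was left out. The call was lost without vehicle library 2, 3 or 4 (adjusted p = 0.084, 0.056 and 0.086) or panobinostat library 5 (adjusted p = 0.058). At these counts 1 read is a visible share of the level. In GENCODE, Maf overlaps the antisense gene Gm15655, whose reads cannot be told apart from those of Maf without a known strand setting.

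Since MAF marks some macrophages and T cells, the levels of those cells stand beside it. The red pulp macrophage markers summed to 29.8, 18.8 and 20.5 CPM with vehicle and 87.3, 52.9 and 29.4 CPM with panobinostat. Of their 11 tested markers 2 rose, Hmox1 and Vcam1, beside 11.3% of all tested genes. Panobinostat library 1 was the highest treated library in 10 of the 11, and in 5534 of all 12916 tested genes. T cell markers summed to 3.97, 2.94 and 3.5 CPM with vehicle and 6.65, 1.69 and 3.82 with panobinostat. The part of these cells in the Maf result was not tested.

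Genes of the wider MAF, BACH and CNC family, which share the basic leucine zipper and bind related sites, had 5 calls in 10 tested genes, 4 higher and 1 lower, with a median log2 fold change of 0.43. The share called over all tested genes was 21.0%. Nfe2l2, the regulator of the oxidative stress response, went from 125 ± 10.5 to 206 ± 12.5 CPM (log2 fold change 0.72 ± 0.10, adjusted p = 0.0063). Nfe2, a factor of platelet and red cell formation, went from 166 ± 33.5 to 368 ± 57.5 CPM (1.15 ± 0.18, adjusted p = 0.0090). The small MAF genes Mafg and Mafk, whose products pair with both, also rose, by 0.77 ± 0.14 and 0.52 ± 0.14 on the log2 scale. Bach2, a repressor that pairs with small MAF proteins, fell from 14.4 ± 2.21 to 4.96 ± 1.08 CPM, a log2 fold change of −1.54 ± 0.21 (adjusted p = 0.0065). Nfe2l2 and Bach2 were called with each library left out in turn, and Nfe2 lost its call only without vehicle library 4 (adjusted p = 0.051). Mafg lost its call without vehicle library 2 or 4 and Mafk without any library but panobinostat library 1, and 2 calls of the list were left without vehicle library 4.

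Cebpa (Entrez 12606, chromosome 7, 35119293 to 35121928) was nearly silent with vehicle and high in 2 of the 3 treated libraries. Vehicle libraries 2, 3 and 4 held 8, 6 and 9 counts, and panobinostat libraries 1, 5 and 6 held 10, 178 and 66. In CPM these were 0.259, 0.213 and 0.308 with vehicle and 0.326, 7.18 and 2.08 with panobinostat. The 3 panobinostat values lay above the 3 vehicle values, but library 1 was above the highest vehicle library by a thin margin, and the highest treated library was 22 times the lowest. The group means were 0.260 ± 0.048 and 3.20 ± 3.56 CPM (SD, n = 3). Cebpa did not pass the filter on low counts, so the test over all genes gave it no value. With no filter the log2 fold change was 3.56, with an adjusted p of 0.031 by edgeR's quasi-likelihood test, where 7.3% of the 18792 genes were called higher. With panobinostat library 1 or any vehicle library left out, Cebpa passed the filter, but only through the treated group where it is high, so these tests give no support. They gave an adjusted p of 0.0047 without panobinostat library 1, where 16.8% of genes were called higher, and of 0.15, 0.12 and 0.14 without vehicle library 2, 3 and 4. In GENCODE, Cebpa overlaps the antisense gene Gm45091, and reads of the pair cannot be told apart without a known strand setting.

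Gfi1 (Entrez 14581, chromosome 5, 107716655 to 107725805) showed the same division of the treated libraries. It overlaps A430072P03Rik on the opposite strand, with the same limit on its reads. Vehicle libraries 2, 3 and 4 held 11, 38 and 16 counts, and panobinostat libraries 1, 5 and 6 held 18, 296 and 148. That is 0.355, 1.35 and 0.548 CPM with vehicle and 0.587, 11.9 and 4.67 CPM with panobinostat. Panobinostat library 1 lay within the vehicle range while libraries 5 and 6 lay above it. The log2 fold change was 2.93 ± 0.99 (SE), with an adjusted p of 0.076 by edgeR's quasi-likelihood test, so Gfi1 was not called, and an interval of 2 SE runs from 0.94 to 4.91. DESeq2 called it, with an adjusted p of 0.0035 and 14.5% of genes called higher. Limma-voom with quality weights, which counts variable libraries for less, called it with an adjusted p of 0.019 and 18.3% of genes called higher, while limma-voom without them gave 0.26. Without panobinostat library 1 the log2 fold change was 3.47, with an adjusted p of 0.0075.

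Cebpa and Gfi1 moved together over the 6 libraries, with a Pearson correlation of 0.958 (Spearman 0.657) in log2 CPM, as a description over libraries that share 2 high points. Panobinostat library 5 was also the highest of the 6 libraries in all 8 mast cell markers, Kit among them. Over all 12916 tested genes it was the highest treated library in 4212. The 8 markers summed to 1842, 2327 and 2033 CPM with vehicle and to 1331, 3804 and 2696 CPM for panobinostat libraries 1, 5 and 6. Panobinostat library 1, where Cebpa and Gfi1 were low, had the lowest mast cell sum and the highest erythroid sum, at 49909 CPM. Its neutrophil marker sum was 2.54 CPM, next to 7.46 and 7.69 in libraries 5 and 6 and 3.20 to 9.15 with vehicle, so libraries 5 and 6 lay within the vehicle range of neutrophil markers. Megakaryocyte markers were higher in all treated libraries, at 151 to 271 CPM against 25.6 to 46.5. The part of these marker transcripts in the Cebpa and Gfi1 values was not tested. The monocyte markers summed to 16.5 to 19.1 CPM with vehicle and 27.8 to 41.7 with panobinostat, highest in library 5.

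**Figure D2:**
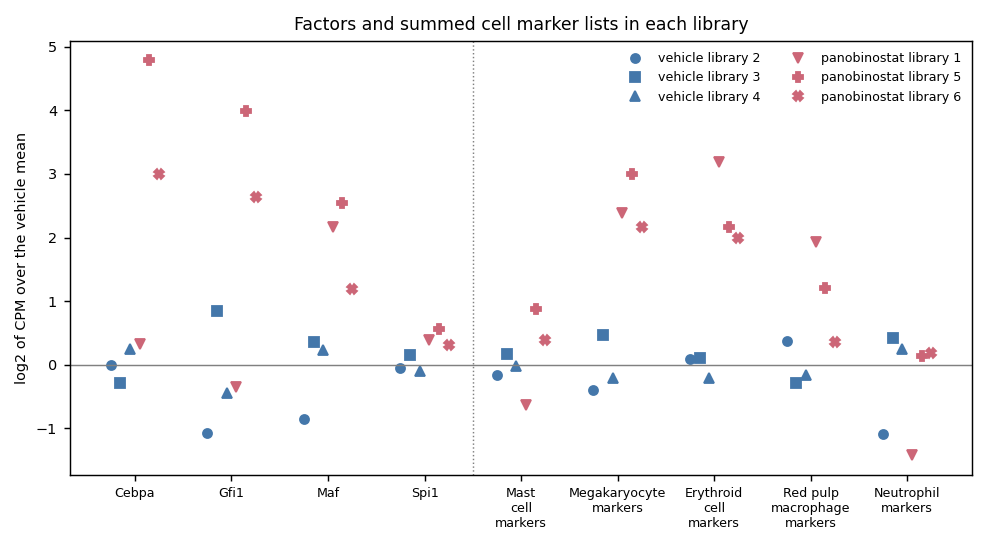
Log2 of the CPM over the vehicle mean (y axis) for Cebpa, Gfi1, Maf and Spi1 and for summed marker lists of 5 cell types, with 1 point per library. In panobinostat library 1 Cebpa and Gfi1 lie near 0 while erythroid markers are highest, and in library 5 Cebpa lies 4.79 and the mast cell sum 0.88 above the vehicle mean.

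Regulators around the C/EBP factors gave 3 calls in 11 tested genes, 1 higher and 2 lower, with a median log2 fold change of −0.02. That is 27.3% called, beside 21.0% of all tested genes. Trib1, a scaffold that directs C/EBP alpha to degradation, fell from 3.17 ± 0.674 to 0.917 ± 0.458 CPM, a log2 fold change of −1.79 ± 0.43 (adjusted p = 0.028, edgeR). Hlf, a leucine zipper factor of blood stem cells, fell by a log2 fold change of −1.55 ± 0.33 (adjusted p = 0.020). Ddit3, which encodes the stress-induced C/EBP partner CHOP, rose from 22.6 ± 2.5 to 36.3 ± 9.12 CPM (0.68 ± 0.19, adjusted p = 0.042). None of the 3 was called without vehicle library 2 or vehicle library 4, and Ddit3 was not called with library size alone.

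Gfi1b, the erythroid and megakaryocyte relative of Gfi1, rose from 114 ± 6.31 to 350 ± 211 CPM (log2 fold change 1.62 ± 0.37, adjusted p = 0.024, edgeR). It was far more abundant than Gfi1 in both groups. The log2 ratio of Gfi1 to Gfi1b ran from −8.32 to −6.29 with vehicle and from −9.94 to −4.23 with panobinostat, and the groups overlapped (exact permutation test, two-sided, p = 0.7). The difference of 0.83 turned to −0.36 without panobinostat library 5. Of 14 tested genes for corepressors of GFI1 and the fusion, that paralog included, 3 rose and 2 fell. Over all tested genes the shares were 11.3% and 9.72%. Cbfa2t3, which encodes a relative of the fusion's ETO part, went from 145 ± 19.6 to 248 ± 14.4 CPM (0.77 ± 0.12, adjusted p = 0.0081). Phf21a rose from 52.4 ± 1.49 to 68.1 ± 7.62 CPM. Hdac2, one of the histone deacetylases that panobinostat inhibits, fell from 130 ± 5.56 to 99.1 ± 6.15 CPM (−0.39 ± 0.09, adjusted p = 0.022), and Cbfa2t2 fell from 49.3 ± 3.86 to 36.3 ± 3.8 CPM. Cbfa2t3 kept its call without any library but vehicle library 4 (adjusted p = 0.056), while Gfi1b lost it without vehicle library 2, 3 or 4. Hdac2 and Cbfa2t2 lost theirs without vehicle library 2, 3 or 4 or panobinostat library 5, and Phf21a without any library but panobinostat library 1. The list's median log2 fold change was 0.10, and −0.01 with library size alone.

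The other C/EBP genes gave no call. Cebpg (Entrez 12611, chromosome 7, 35046422 to 35056566) had 68.9, 95.5 and 92.2 CPM with vehicle and 80.5, 88.3 and 90.5 CPM with panobinostat. The groups overlapped over nearly their whole ranges, with a log2 fold change of 0.02 ± 0.14 (SE, adjusted p = 0.95, edgeR) and an interval of 2 SE from −0.26 to 0.29. In GENCODE, Cebpg overlaps 3 genes, among them Gm45095 on the opposite strand, whose reads cannot be told apart without a known strand setting. Cebpb (Entrez 12608, chromosome 2, 167688915 to 167690432) had 0.549, 0.993 and 0.651 CPM with vehicle and 0.815, 1.73 and 0.820 CPM with panobinostat. Its highest value was again in panobinostat library 5. The log2 fold change was 0.61 ± 0.42 (adjusted p = 0.33, edgeR), and an interval of −0.23 to 1.44 leaves room for a rise of more than 2-fold. Cebpb overlaps Tmem189 on the opposite strand in GENCODE, but not by the RefSeq position of Tmem189, 167643225 to 167661544. Tmem189 had 35.6 to 42.0 CPM with vehicle and 49.5 to 73.5 CPM with panobinostat. Whether the 2 genes share reads is not known, since the annotation used for the counting is not given. Cebpd (Entrez 12609, chromosome 16) had 0, 1 and 5 counts with vehicle and 1, 1 and 3 with panobinostat. These counts are at the level of a few reads per library, so no difference was detectable at this depth. Cebpd overlaps Spidr on the opposite strand, with the same limit on its reads. Spidr had 32.1 ± 2.22 CPM with vehicle and 24.3 ± 3.49 CPM with panobinostat.

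Ratios of C/EBP genes within a library do not depend on the scaling. The log2 ratio of Cebpa to Cebpg was −8.27 ± 0.38 with vehicle and −5.64 ± 2.14 with panobinostat, a difference of 2.63 with no overlap (exact permutation test, two-sided, p = 0.1, which is the smallest that 3 against 3 allows). The margin was thin, at −7.88 in panobinostat library 1 and −7.97 in vehicle library 2, and rests on few Cebpa counts. Without panobinostat library 5 the difference was 1.62. The ratio of Cebpa to Cebpb went up by 2.1 on the log2 scale and overlapped between the groups (p = 0.3, exact). Over the 9 ratios compared, the Benjamini-Hochberg adjusted p was 0.386 or more, so no ratio passed.

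Klf4 (Entrez 16600, chromosome 4, 55527137 to 55532475), a zinc finger factor of monocytes, had 2, 4 and 5 counts in vehicle libraries and 0, 1 and 2 counts in panobinostat libraries. It was too low to test, and both groups lie at or near the level of 3 counts that a count of 0 allows. The groups meet at 2 counts, and no fold is given. Klf1, the erythroid member of the family, had 155 ± 12.6 and 236 ± 79.8 CPM, with a log2 fold change of 0.60 ± 0.22 (SE, adjusted p = 0.094, edgeR). The log2 ratio of Klf4 to Klf1 was lower by −2.21 with panobinostat, with no overlap (exact permutation test, two-sided, p = 0.1), and rests on those few Klf4 counts. Of 15 tested KLF and SP genes 2 rose and 1 fell. That is 20% called, beside 21.0% of all tested genes. Klf3, a repressor of KLF targets, rose from 33.8 ± 5.70 to 55.5 ± 3.64 CPM and Klf13 from 111 ± 10.8 to 169 ± 29.5 CPM, while Sp4 fell from 46.4 ± 7.37 to 28.7 ± 3.10 CPM (adjusted p = 0.015, 0.027 and 0.019, edgeR). All 3 calls were lost without vehicle library 4, those of Klf13 and Sp4 also without vehicle library 2, and that of Klf13 also without vehicle library 3. The list's median was 0.06, and −0.05 with library size alone.

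Genes that PU.1 and the C/EBP factors are known to control in mature cells were described by counts alone. Of 15 tested granulocyte genes 2 rose and none fell, with a median log2 fold change of 0.31. That is 13.3% called higher, close to the 11.3% of all tested genes. Itgb2, the beta chain of leukocyte integrins, went from 109 ± 8.37 to 234 ± 33.1 CPM (1.11 ± 0.12, adjusted p = 0.0042, edgeR). Csf2ra, a receptor chain for GM-CSF, went from 17.6 ± 2.05 to 26.3 ± 2.24 CPM. Mpo and Lyz2, granule and lysozyme genes of granulocytes and macrophages, had log2 fold changes of 0.31 ± 0.63 and 0.07 ± 0.32 with no call. Csf3r, the receptor of the granulocyte growth factor, had 0.454 ± 0.112 and 2.24 ± 2.24 CPM (adjusted p = 0.061, edgeR). Itgb2 was called with each library left out in turn, and Csf2ra was not called without vehicle library 2, vehicle library 4 or panobinostat library 5.

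Monocyte and macrophage genes gave 4 calls in 18 tested genes, all higher, with a median log2 fold change of 1.03, and all 18 had a positive value under each scaling. That is 22.2% called higher, beside 11.3% of all tested genes. Fcgr1, a high-affinity receptor for IgG, rose from 0.226 ± 0.0476 to 1.10 ± 0.387 CPM (2.26 ± 0.40, adjusted p = 0.012, edgeR). Csf2rb, the shared receptor chain of several growth factors, rose from 966 ± 265 to 2655 ± 1018 CPM (1.46 ± 0.30, adjusted p = 0.018). Ccr2, a chemokine receptor of monocytes, rose by 1.19 ± 0.27 on the log2 scale. Csf1r, the macrophage growth factor receptor, had 2.62 ± 0.589 and 5.46 ± 3.48 CPM and no call (adjusted p = 0.17, edgeR). The conventional dendritic cell markers, which mark another myeloid cell type of the spleen, summed to 8.43 to 11.1 CPM with vehicle and 17.8 to 23.1 CPM with panobinostat, highest in library 5. Of their 3 tested markers 2 rose, Zbtb46 and Clec9a, and the part of such cells in this list was not tested. Fcgr1 and Clec9a passed the filter on low counts only through the treated libraries, where they are high, so their calls are not added support. Without panobinostat library 1, the library with the most red pulp macrophage transcript, the list's median was 0.48 with 15 of 19 values positive and 6 calls. Without vehicle library 2 or vehicle library 4 there were 0 calls. In these fits, in that order, 16.8%, 3.28% and 2.29% of all tested genes were called higher.

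The erythroid, megakaryocyte and mast cell factors were the list with the most calls: 9 of 12 tested genes rose, with a median log2 fold change of 0.66 and all 12 values positive under each scaling. Over all tested genes 11.3% were called higher. With library size alone as the scaling 7 genes of the list were called. Gata2, a factor of blood progenitors and mast cells, rose from 384 ± 46.5 to 660 ± 79.4 CPM (0.78 ± 0.13, adjusted p = 0.011, edgeR). Tal1 went from 439 ± 23.2 to 611 ± 22.1 CPM and Myb, a factor of immature blood cells, from 354 ± 8.52 to 516 ± 51.8 CPM (both adjusted p = 0.014). These levels exceed those of every low myeloid factor above, and calls in the list ranged from 0 without vehicle library 4 and 1 without vehicle library 2 to 11 without panobinostat library 1. In those fits 2.29%, 3.28% and 16.8% of all tested genes were called higher. Over all 9 context lists with each gene counted once, 26 of 125 tested genes rose and 8 fell, with a median log2 fold change of 0.28. That is 27.2% called, beside 21.0% of all tested genes.

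**Figure D3:**
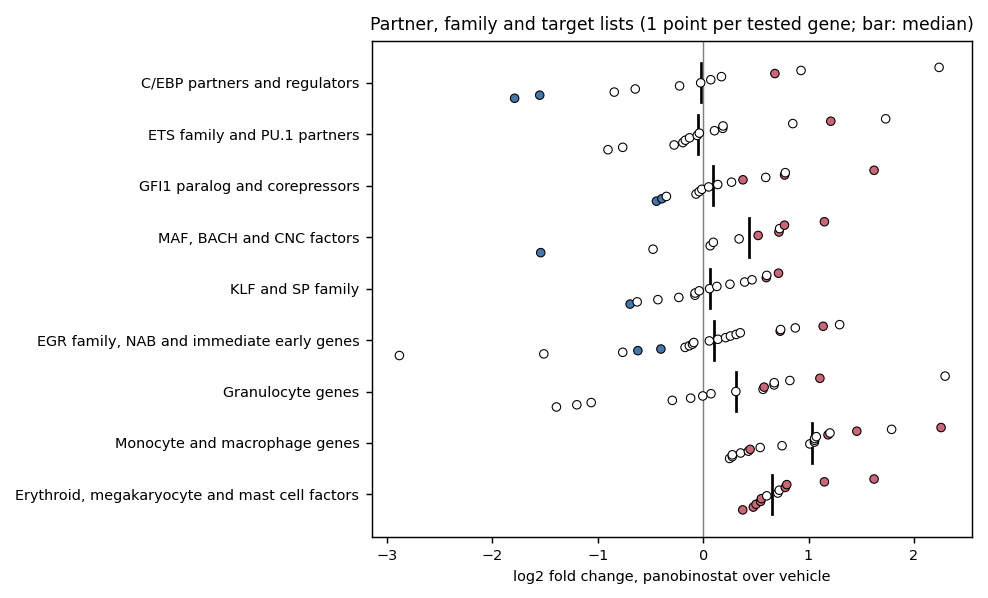
Log2 fold change of panobinostat over vehicle (x axis) for each tested gene of the 9 partner, family and target lists (rows), with 1 point per gene, filled where called and open otherwise, and a bar at the list's median. The medians run from −0.05 for ETS and PU.1 partners to 1.03 for monocyte and macrophage genes.

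Egr1 (Entrez 13653, chromosome 18, 34861207 to 34864956) is an immediate early gene, switched on within minutes of a growth or stress signal, and vehicle libraries 2, 3 and 4 had 94.8, 12.3 and 13.4 CPM of it, against 101, 92.7 and 77.6 CPM for panobinostat libraries 1, 5 and 6. The treated libraries were alike, and vehicle library 2 fell among them while vehicle libraries 3 and 4 lay far below. The log2 fold change over all libraries was 1.17 ± 0.74 (SE), with an adjusted p of 0.29 by edgeR's quasi-likelihood test, so Egr1 was not called, and its interval of 2 SE runs from −0.32 to 2.65. Without vehicle library 2 the log2 fold change was 2.81, with an adjusted p of 0.015, and 3.28% of genes were called higher. Limma-voom with quality weights called it at 2.27 with an adjusted p of 0.0083. The Egr1 result thus rests on 1 library.

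The same vehicle library was high in other immediate early genes, which are named here after their values were seen. It was the highest vehicle library in 13 of the 20 tested genes of their list, beside 5070 of 12916 tested genes. In Ier5 and Btg2, at 70.6 and 49.9 CPM, it was the lowest vehicle library. Fos stood at 131, 3.90 and 9.53 CPM with vehicle and at 31.1, 8.31 and 11.2 CPM with panobinostat, in the same order of libraries. Fosb stood at 130, 8.48 and 6.03 CPM with vehicle and 10.2, 4.28 and 5.05 CPM with panobinostat. Relative to the mean of vehicle libraries 3 and 4, vehicle library 2 was 7.38-fold higher for Egr1, 19.5-fold for Fos, 17.9-fold for Fosb and 4.05-fold for Jun. The panobinostat mean relative to the same 2 libraries was 7.03-fold for Egr1, 2.52-fold for Fos, 0.897-fold for Fosb and 1.19-fold for Jun. The genes were not alike in the treated libraries. Relative to vehicle library 2, the panobinostat mean was 0.953-fold for Egr1, 1.17-fold for Zfp36, 0.822-fold for Ier2 and 0.770-fold for Junb, but 0.129-fold for Fos and 0.0501-fold for Fosb. The part of the immediate early signal of vehicle library 2 in the Egr1 result was not tested.

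**Figure D4:**
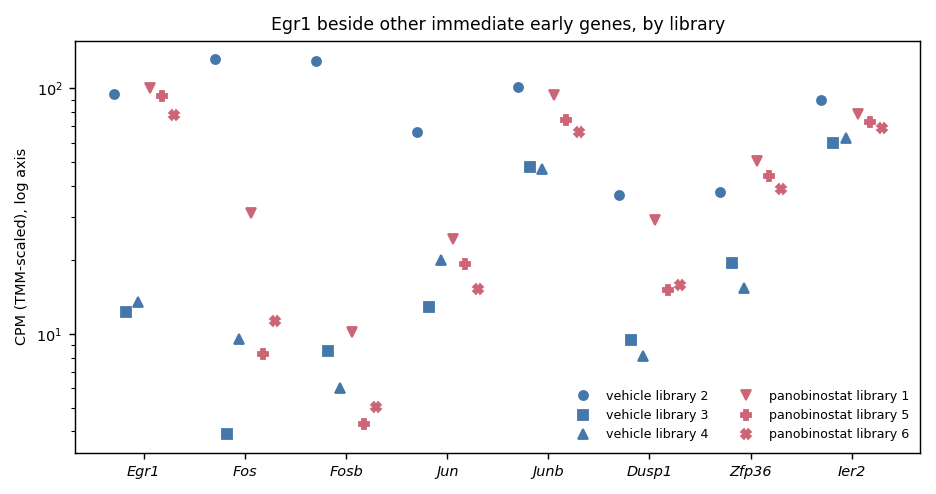
Level of Egr1 and 7 other immediate early genes (x axis) in CPM on a log axis, with 1 point per library. The other 7 genes were picked after their values were seen. Vehicle library 2 is the highest vehicle library in each gene shown. For Egr1 it lies within the panobinostat range of 77.6 to 101 CPM, while for Fos and Fosb it lies above every other library.

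Nab2, a corepressor that EGR1 induces and that represses it in turn, was at 11.9 ± 1.31 and 14.8 ± 3.98 CPM (log2 fold change 0.31 ± 0.21, adjusted p = 0.31, edgeR). The log2 ratio of Egr1 to Nab2 was 2.96, −0.09 and 0.36 with vehicle and 3.05, 2.26 and 2.58 with panobinostat (exact permutation test, two-sided, p = 0.3). Of 20 tested genes of the EGR, NAB and immediate early list 2 rose and 2 fell, with a median log2 fold change of 0.10 that was −0.015 with library size alone. That is 20% called, beside 21.0% of all tested genes. Ier5 rose from 79.4 ± 8.11 to 132 ± 9.69 CPM (adjusted p = 0.0073, edgeR) and Btg2, an antiproliferative gene, from 61.4 ± 11.3 to 135 ± 21.8 CPM (adjusted p = 0.0075). Srf, the serum response factor that switches on immediate early genes, fell from 57.1 ± 0.532 to 43.3 ± 2.39 CPM (adjusted p = 0.019), and the phosphatase gene Dusp2 fell from 18.4 ± 3.27 to 12 ± 1.41 CPM (adjusted p = 0.039). Ier5 and Btg2 were called with each library left out, whereas Srf and Dusp2 were not called without vehicle library 2, 3 or 4 or panobinostat library 5. Dusp2 was also not called without panobinostat library 6.

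Likeness to the called factors was measured as the Pearson correlation of log2 CPM over the 6 libraries among the 9414 genes that averaged 5 CPM or more. For Spi1 the closest were Fam174a (r = 0.996), Tbl1xr1 (r = 0.995) and Crebrf (r = 0.994), of which Crebrf rose in the test. For Maf they were Copz1 (r = 0.991), Zfp677 (r = 0.989) and Rasl11a (r = 0.988), all 3 of which rose. With 6 libraries and so many genes searched, high values are easy to reach: the closest gene to Cebpd, which had a few counts per library, had r = 0.970. Spi1 and Maf themselves had r = 0.938 over the 6 libraries. Both were higher in every treated library than in any vehicle library. A high r between them, and higher treated levels in the genes most like them, follow from that choice and are not added support.

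**Figure D5:**
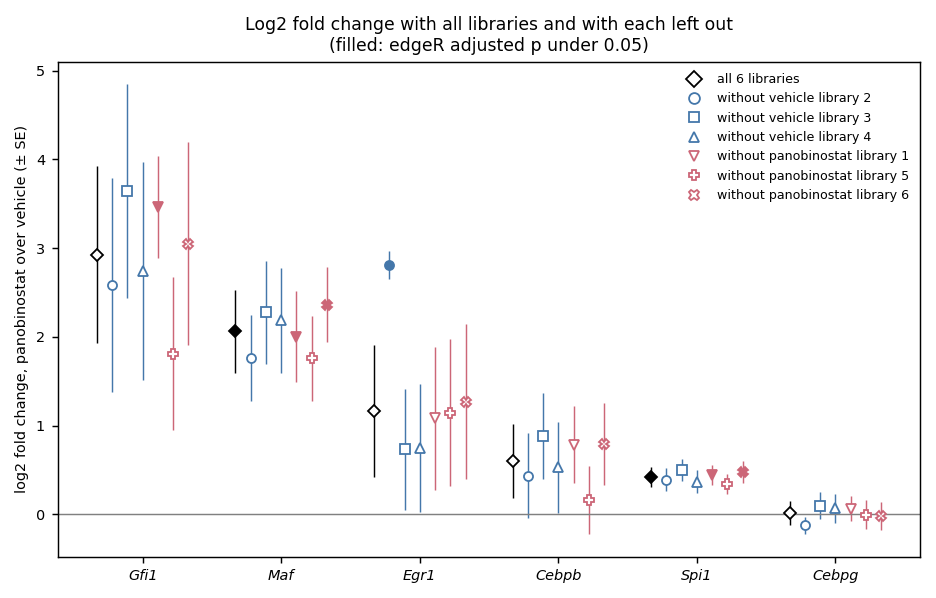
Log2 fold change with its SE (y axis) of the 6 tested factors (x axis) with all libraries and with each library left out in turn, with marker fill showing an adjusted p under 0.05. Spi1 spans 0.34 to 0.50 and Maf 1.76 to 2.37, while Egr1 spans 0.73 to 2.81 and Gfi1 1.81 to 3.64.

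The number of factors called, all of them higher, depended on which libraries entered the test, and so did the share of all tested genes called higher. With all libraries 2 of 6 were called beside 11.3% of all genes. Leaving out panobinostat library 1 gave 4 of 7 (Spi1, Gfi1, Cebpa and Maf) beside 16.8%, and leaving out panobinostat library 6 gave Spi1 and Maf beside 8.82%. Leaving out vehicle library 2 gave Egr1 beside 3.28%. Without vehicle library 3, vehicle library 4 or panobinostat library 5 there were 0 calls among the factors, where 5.64%, 2.29% and 7.58% of all genes were called higher. Leaving out panobinostat library 1 and vehicle library 2 together, an alternative added after these libraries had been seen to stand apart, gave Egr1, Gfi1 and Cebpa beside 12.9%, and Spi1 and Maf then had adjusted p of 0.073 and 0.071 by edgeR. The 7 factors tested in some of these settings include Cebpa, which passed the filter there through the treated group, so its calls are not added support. Nor is the call of Maf with all libraries, since Maf passed that filter only with the help of the treated group.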

How the data were processed

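RNA of sorted leukemia cells was sequenced in 6 libraries, 3 per group. The authors deposited raw read counts for each gene, keyed by Entrez number. The submitters' processing notes name build mm10 and, among the tools, HISAT2 2.1.0, Subread 2.0.0 with featureCounts, and cutadapt 2.1. For the counting, neither strand setting nor annotation is given in the sources used here. Columns were grouped by the word treated or control in their names, and 0 columns were left unused. The other numbers in the names are not explained: vehicle libraries 2 and 3 share the second number, as do panobinostat libraries 1 and 6, and panobinostat library 1 alone differs from the rest in the third. Whether libraries that share a number share a source is not known. Gene names came from RefSeq for 25275 genes and GENCODE for 18, and 1886 IDs stayed unnamed.

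Genes were filtered with filterByExpr by group (12916 left) and scaled by TMM. Treatment was tested with edgeR 4.0.16 (R 4.3.3) by its quasi-likelihood F test, with Benjamini-Hochberg adjustment over all tested genes and calls at an adjusted p under 0.05. SE is the absolute log2 fold change over the square root of F, and intervals are 2 SE to each side. The common biological coefficient of variation was 0.195. CPM are TMM-scaled and computed here. Log2 ratios within a library add 0.5 to each count. On simulated data for 12816 genes the test recovered 78% of 2-fold and 100% of 4-fold changes, and 7.29% of calls were false. Changes under 2-fold were not simulated. Only genes above a floor on the mean count were changed, and every gene was drawn with the common variation. These rates therefore do not cover genes with few counts, such as Maf and Cebpb. Nor do they cover genes that varied more between libraries, such as Gfi1 and Egr1. The smallest two-sided exact p for 3 against 3 is 0.1.

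The members and the gene lists were chosen with earlier results of these data known, so no list gives independent support. Named genes are the 9 members, their pair partners, up to 4 called genes with the smallest p per context list, the 3 genes most like each called member, and marker genes beside a result. Mafk, Phf21a and others outside the 4 per list, such as Ets1, Fli1, Irf8, Mpo, Lyz2, Csf1r, Csf3r, Fos, Fosb, Jun, Junb, Zfp36 and Ier2, were chosen after their values were seen. Alternatives covered scaling (RLE, library size alone, upper quartile), filters, DESeq2 1.42.0, limma-voom (limma 3.58.1) with and without quality weights, robust shrinkage and leaving out each library. Results that need items withheld for evaluation are not reported here.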

Additional observations from a re-analysis of the deposited data

How the results depend on the processing

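No paired analysis was possible because the count columns carry no replicate number of the labels. With library size alone as the scaling 1 of the 9 factors was called, and with limma-voom quality weights 4, against 2. With quality weights 4520 genes were called in all and 54 context genes, against 2715 and 34. Leaving out 1 library gave 0 to 4 factors, 438 to 4056 genes in all and 5 to 44 context genes. The lowest totals came without vehicle library 4, where 5 context genes were called. Fewer libraries per group lower the number of residual degrees of freedom. Log2 ratios whose groups did not overlap numbered 2 with all libraries and reached 4 without vehicle library 3 and 6 without panobinostat library 1. Without panobinostat library 1 and vehicle library 2 together, 3 factors, 2875 genes and 42 context genes were called. Of the other values for single genes and lists, 233 stayed on their side of the threshold or within their spread, 41 moved, 7 passed the threshold, 11 lost it and 10 changed sign, none of them from or to a called value. The log2 fold change of Cebpg, 0.02 with all libraries, was −0.088 with library size alone, −0.0025 with no filter, −0.010 with quality weights, −0.071 without panobinostat library 1 and vehicle library 2, and −0.12, −0.00086 and −0.018 without vehicle library 2, panobinostat library 5 and panobinostat library 6, with 0.098 as the highest, without vehicle library 3. The Spi1 to Gata1 difference of −0.06 was 0.036 without vehicle library 3 and ran from −0.23 without panobinostat library 5 to 0.11 without panobinostat library 1. The Gfi1 to Gfi1b difference of 0.83 ran from −0.36 without panobinostat library 5 to 2.5 without panobinostat library 1. The cause of these changes was not tested. The 28 named context genes were all called without panobinostat library 1, but 5 of them without vehicle library 4: Nfe2l2, Bach2, Ier5, Btg2 and Itgb2, which were called in all 6 cases. Depth limits Klf4 and Cebpd, which had at most 5 counts per library.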
